A study of Homo sapiens with 16 samples.

Results

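FGFBP1 (ENSG00000137440) encodes a secreted carrier protein for fibroblast growth factors (FGFs). Its mRNA was followed here with that of 9 other genes of FGF signalling in HCT116 cells, an established human colon cancer line. The cells were treated with an inhibitor of the histone methyltransferase G9a or with siRNA against it. The 10 genes are the carriers FGFBP1 and FGFBP3, the ligands FGF2, FGF9 and FGF19, the receptors FGFR1, FGFR2, FGFR3 and FGFR4, and the adaptor FRS2, out of 63653 genes listed for each sequencing run. They were chosen by gene symbol around FGFBP1, which had itself been selected because its level was higher after both G9a treatments in these same libraries. FGFBP1 in those contrasts is therefore described without a test, and tests are given for the other members. Total RNA was sequenced from 8 libraries in 4 groups of 2, and each library was run on the sequencer 2 times. One group was exposed to 0.5 µM BIX 01294 trihydrochloride hydrate, an inhibitor of G9a, for 72 hours, and it has its own inhibitor control group. Another was transfected by lipid reagent with 10 nM siRNA against G9a and kept for 72 hours, and it has a siRNA control group. What either control received is not in the labels, nor whether the paired libraries of each group are separate cultures. The p-values thus reflect spread among libraries that may be only technical.

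FGFs are stored outside the cell on heparan sulfate, and FGFBP1 binds some of them, FGF2 among them, and releases them in a form that can reach receptors. An FGF bound to its receptor tyrosine kinase together with a heparan sulfate chain or a klotho coreceptor leads to phosphorylation of FRS2, which recruits adaptors that switch on RAS and the MAP kinase cascade. Sprouty, SPRED and DUSP proteins are induced by the pathway and restrain it. G9a, the product of EHMT2, methylates histone H3 at lysine 9, which often marks silent genes.

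The promoter sequences of the carriers are shown because FGFBP1 is the gene the results turn on and FGFBP3 is its paralog among the members. They were taken from the RefSeq table of build GRCh38.p14, which matched 7 of the 10 members with 12 start sites, and each holds the 250 bases before the annotated start, on the minus strand, with every CG dinucleotide in capitals. The FGFBP1 window is chr4:15938741-15938990 and the FGFBP3 window is chr10:91909487-91909736.
FGFBP1: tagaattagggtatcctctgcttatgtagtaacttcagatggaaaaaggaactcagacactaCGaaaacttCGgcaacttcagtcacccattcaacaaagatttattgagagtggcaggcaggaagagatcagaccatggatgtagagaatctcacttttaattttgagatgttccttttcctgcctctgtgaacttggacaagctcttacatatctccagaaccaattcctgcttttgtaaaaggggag
FGFBP3: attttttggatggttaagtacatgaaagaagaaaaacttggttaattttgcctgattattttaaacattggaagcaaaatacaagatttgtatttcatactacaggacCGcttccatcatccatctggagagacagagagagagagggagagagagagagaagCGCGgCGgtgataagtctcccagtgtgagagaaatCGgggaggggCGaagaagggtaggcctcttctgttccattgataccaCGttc
The FGFBP1 window held 2 CG dinucleotides and was 40.8% G and C. Of 35116 windows of the same length in the table, 14.7% had fewer CG dinucleotides, and the median was 11. The FGFBP3 window held 7, while the window of FGFR3 held 40, that of FGF2 held 33 and that of FRS2 held 14. FGFR4 had 1 window with 24 and another with 2, and the 5 windows of FGFR2 held between 3 and 42. On either strand, the FGFBP1 window had no match to the AP-1 motif TGANTCA, found in 6.6% of all windows, the SP1 motif GGGCGG, found in 42.6%, the E-box CACGTG, found in 6.3%, or TATAAA, found in 10.7%.

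Levels are given as FPKM, fragments per transcript length and sequencing depth, averaged over the 2 runs of a library and scaled between libraries by the median of ratios. Differences are on the log2(FPKM + 1) scale, which understates changes of low genes, and were tested with limma over 12846 genes with a mean of at least 1 FPKM and a locus of at least 300 bases, at an adjusted p of 0.05. Depth per library is unknown because the files give no counts. The intervals that Cufflinks gave, read as counting error alone, imply at least 103.1 fragments per run for FGFBP1. They imply as few as 4.2 for FGFR2 and 4.0 for FGF9. Libraries of a group also differed, with 65.0 and 73.7 fragments for FGFR2 in inhibitor control replicate 1 and 10.6 and 9.6 in replicate 2. EHMT2 itself stood at 15.93 and 17.77 FPKM in the siRNA controls and at 4.679 and 4.538 in the siRNA libraries, a log2 difference of -1.67 ± 0.09 (SE, limma adjusted p = 0.000268). With the inhibitor it was 19.67 and 18.94 against 24.72 and 20.99 in its controls, which did not pass (limma adjusted p = 0.0827). The 2 inhibitor controls correlated at 0.993 with each other, at 0.957 to 0.974 with the other 6 libraries, and those 6 at 0.985 to 0.995 among themselves (Pearson r across genes, which are not independent replicates). For that reason the inhibitor libraries are also set against the siRNA controls, and the siRNA controls against the inhibitor controls. These comparisons share control samples, so each is given by its own values. Of 8 epithelial marker genes, EPCAM, KRT8, KRT18 and KRT19 were above 70 FPKM in every library. The other 4 were low, with E-cadherin (CDH1) at 0.6232 to 2.016 FPKM, VIL1 at no more than 0.4089, LGALS4 at no more than 0.2526 and the intestinal cadherin CDH17 at or near 0. The epithelial sum, carried by the first 4 genes, ran from 745 to 754 in the inhibitor controls, 685 to 702 with inhibitor, 629 to 631 in the siRNA controls and 630 to 645 with siRNA. Of 10 fibroblast markers, COL1A1 at 0.7295 to 2.069 FPKM and PDGFRB at 0.3855 to 1.835 were the highest. LUM and FAP were listed at 0 throughout, and the sum of the 10 lay between 1.75 and 3.76. The sum of 4 endothelial and immune markers did not exceed 0.144.

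FGFBP1 was higher in all 4 treated libraries than in all 4 controls. Its locus in the files is on chromosome 4 from 15937192 to 15940363 (hg19). The inhibitor controls held 14.17 and 14.55 FPKM and the inhibitor libraries 24.35 and 25.69. The siRNA controls held 14.96 and 16.39 FPKM and the siRNA libraries 26.91 and 24.78. The control groups lay close together, the treated groups lay close together, and no treated library overlapped a control library. Group means were 14.4 ± 0.27 in the inhibitor controls, 25.0 ± 0.946 with inhibitor, 15.7 ± 1.01 in the siRNA controls and 25.8 ± 1.51 with siRNA (SD, n = 2 each).

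The ratio of FGFBP1 means was 1.74 for inhibitor over inhibitor control and 1.65 for siRNA over siRNA control. It was 1.6 when the inhibitor libraries were set against the siRNA controls, and 1.09 between the control groups. On the log2(FPKM + 1) scale the differences were 0.76 with the inhibitor, 0.69 with the siRNA, 0.64 for inhibitor against siRNA control and 0.12 between the controls, and the inhibitor difference minus the siRNA difference was 0.07, ranging from -0.009 with the first run alone to 0.143 over the alternative settings. The rule used these contrasts, so the values are a description. The lowest treated library was 1.49 times the highest control library. By that ratio FGFBP1 ranked 3 of the 12846 genes tested, after RP11-342D14.1 at 1.74 and RP11-386G11.10 at 1.6. This rank uses the contrasts that FGFBP1 was selected on, so it adds no separate evidence. RP11-342D14.1 was near the filter, with a mean of 1.04 FPKM and controls at no more than 0.6507. All 4 treated libraries lay above all 4 controls for 5.57% of the genes tested.

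The same FGFBP1 values can be read run by run, as a description. As deposited, the 8 control runs lay between 13.77 and 16.53 FPKM and the 8 treated runs between 20.66 and 27.86. The 2 runs of a library differed by up to 18.2% of their mean. The intervals that Cufflinks gave for single runs overlapped, since the lowest lower bound among treated runs was 17.65 and the highest upper bound among control runs was 19.47.

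**Figure D1:**
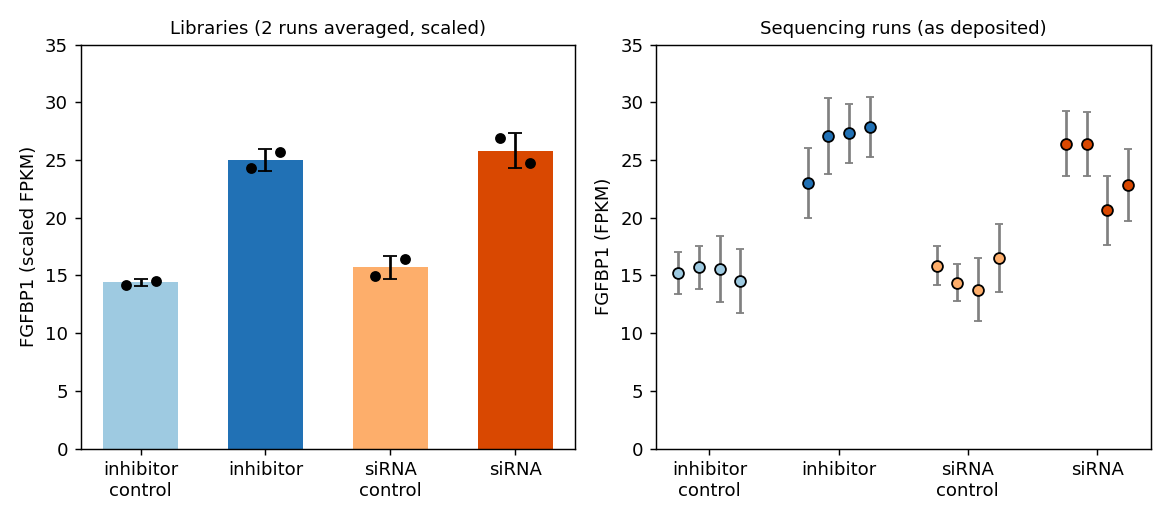
FGFBP1 in each group, on the left as scaled FPKM per library (points), group mean (bar) and SD of 2 libraries (error bar), and on the right as deposited FPKM in each of 16 runs with the interval given by Cufflinks. The treated libraries sit between 24.35 and 26.91 and the control libraries between 14.17 and 16.39.

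The other carriers were nearly silent. FGFBP3 was 0.3754 and 0.5515 FPKM in the inhibitor controls, 0.3482 and 0.2156 with inhibitor, 0.3672 and 0.513 in the siRNA controls and 0.2659 and 0.3489 with siRNA. All 4 treated libraries lay below the 4 controls, as they did for 5.84% of the genes tested, but by as little as 0.3489 against 0.3672. FGFBP3 was below the filter of 1 FPKM. In a fit without that filter it did not pass with inhibitor (limma adjusted p = 0.403) or siRNA (limma adjusted p = 0.643), and its 2 runs differed by a median of 42.5% of their mean. FGFBP2, the third carrier and a close neighbour of FGFBP1 on chromosome 4, ran from 0 to 0.3188 FPKM.

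Of the 9 members other than FGFBP1, 8 passed the filter and 3 of these passed the test with the inhibitor, FGFR1 and FGFR2 lower and FRS2 higher. Among all genes tested 36.5% passed in that comparison, 17.7% higher and 18.7% lower. None of the 8 passed with the siRNA, where 2.13% of all genes did (0.802% higher and 1.32% lower), and only FGF19 was under an unadjusted p of 0.05. None passed for inhibitor against siRNA control, where 0.0389% of all genes did and where no member was under an unadjusted p of 0.05. Between the control groups 5 of 8 passed, FGFR1, FGFR2 and FGFR3 lower and FGF19 and FRS2 higher in the siRNA controls, beside 38.3% of all genes (19.2% higher and 19.0% lower). The difference between the inhibitor and siRNA effects passed for none of the 8 and for 11.8% of all genes, with FGFR1 and FGFR2 under an unadjusted p of 0.05.

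The ligands were expressed at a few FPKM. FGF2, the heparin-binding ligand that FGFBP1 carries, was 3.637 and 3.69 FPKM in the inhibitor controls and 4.016 and 5.024 with inhibitor. It was 3.922 and 3.114 in the siRNA controls and 4.314 and 4.095 with siRNA. Apart from FGFBP1, FGF2 was the one member with all 4 treated libraries above all 4 controls, by a margin of 4.016 over 3.922. The same held for 5.57% of the genes tested. It held only after scaling, since as deposited siRNA replicate 2 was 3.595 FPKM and inhibitor control replicate 1 was 3.968. Neither difference passed, at 0.24 ± 0.13 with inhibitor (limma adjusted p = 0.186) and 0.21 ± 0.13 with siRNA (SE, limma adjusted p = 0.395).

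FGF19, an endocrine FGF that signals through FGFR4 with a klotho coreceptor, was lowest in the inhibitor controls and highest with siRNA. Its levels were 2.833 and 2.488 FPKM in the inhibitor controls, 2.96 and 3.529 with inhibitor, 3.574 and 4.271 in the siRNA controls and 5.101 and 5.245 with siRNA. The siRNA libraries did not overlap their controls, with a difference of 0.33 ± 0.12 that did not pass (SE, limma adjusted p = 0.173). How many of all genes show no overlap between 2 groups of 2 libraries was not counted, for FGF19 or for the other members. With inhibitor the difference was 0.21 (limma adjusted p = 0.209). The siRNA controls exceeded the inhibitor controls by 0.43 ± 0.12 (SE, limma adjusted p = 0.0232). FGF9, which acts on FGFR2 and FGFR3 among others, was 1.278 and 2.403 FPKM in the inhibitor controls, 1.482 and 1.117 with inhibitor, 1.178 and 1.118 in the siRNA controls and 1.248 and 1.509 with siRNA. One inhibitor control stood above the other 7 libraries, the groups of the inhibitor comparison overlapped, and FGF9 passed in no comparison. Single runs of FGF9 held only 4.0 to 21.1 fragments as implied by the Cufflinks intervals. Of the 22 FGF genes on the ligand list, only these 3 passed the filter, 14 had means under 0.1 FPKM and 4 were listed at 0 in every library. The highest mean among the other 19 was 0.525 FPKM, for FGF18.

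FGFR1 was the most abundant receptor and was higher in the inhibitor controls than in any other library. It was 16.22 and 18.47 FPKM there, 11.8 and 13.6 with inhibitor, 12.81 and 13.87 in the siRNA controls and 14.08 and 13.22 with siRNA. The inhibitor libraries overlapped the siRNA controls and did not overlap the inhibitor controls. FGFR1 fell by 0.42 with the inhibitor (SE 0.09, limma adjusted p = 0.00803), and the differences were 0.03 with siRNA (limma adjusted p = 0.887) and -0.07 for inhibitor against siRNA control (limma adjusted p = 0.812). The siRNA controls were below the inhibitor controls by a log2 difference of -0.35 (limma adjusted p = 0.0169). The inhibitor effect minus the siRNA effect was -0.45 ± 0.13 and did not pass (SE, limma adjusted p = 0.059).

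FGFR2 was also highest in the inhibitor controls. It was 3.266 and 3.211 FPKM in the inhibitor controls, 1.68 and 2.232 with inhibitor, 1.816 and 1.94 in the siRNA controls and 1.52 and 1.951 with siRNA. Both inhibitor controls stood above the other 6 libraries, which overlapped one another. Single runs of FGFR2 held between 4.2 and 73.7 fragments as implied by the Cufflinks intervals, so its levels are imprecise. The difference was -0.53 ± 0.14 with inhibitor (SE, limma adjusted p = 0.0174), -0.08 with siRNA (limma adjusted p = 0.8), 0.03 for inhibitor against siRNA control (limma adjusted p = 0.942) and -0.56 between the controls (limma adjusted p = 0.0127).

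FGFR3 was 5.318 and 6.063 FPKM in the inhibitor controls, 4.557 and 5.223 with inhibitor, 4.228 and 4.41 in the siRNA controls and 4.139 and 3.522 with siRNA. The inhibitor libraries did not overlap their controls but the difference of -0.18 did not pass (limma adjusted p = 0.244), nor did that of -0.14 with siRNA (limma adjusted p = 0.522). FGFR4 varied least among the receptors, between 9.323 and 12.64 FPKM over the 8 libraries, and its treated and control libraries overlapped for both treatments. It was 12.64 and 11.04 FPKM in the inhibitor controls, 11.16 and 12.12 with inhibitor, 9.323 and 10.69 in the siRNA controls and 9.702 and 10.28 with siRNA. The differences of FGFR4 were -0.02 ± 0.10 with inhibitor and 0.00 ± 0.10 with siRNA (SE, limma adjusted p = 0.89 and 0.999).

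FRS2, the docking protein below the receptors, was lowest in the inhibitor controls. It was 6.85 and 7.483 FPKM there, 8.852 and 9.013 with inhibitor, 10.19 and 9.266 in the siRNA controls and 8.838 and 10.38 with siRNA. The siRNA libraries overlapped their controls, and the inhibitor libraries lay above theirs. FRS2 rose by 0.28 ± 0.10 with inhibitor (SE, limma adjusted p = 0.0491), the difference was -0.02 with siRNA (limma adjusted p = 0.938), and the siRNA controls exceeded the inhibitor controls by 0.39 (limma adjusted p = 0.0125).

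Without inhibitor control replicate 2, or without inhibitor replicate 1, none of the 8 members was called with the inhibitor, and 1 was called without inhibitor control replicate 1. FGFR1 kept its inhibitor call under 15 of 18 alternative settings, FGFR2 under 13 and FRS2 under 6. The 18 include leaving out libraries of groups not compared, which changes the estimate of spread but not the difference itself. Counts out of 18 therefore overstate how far the calls were tried. Between the controls the calls held under 14 of 18 settings for FGFR1, 14 for FGFR2, 13 for FRS2, 12 for FGF19 and 4 for FGFR3 (limma adjusted p = 0.0492), and 3, 2, 1 and 3 members were called without inhibitor control replicate 1, inhibitor control replicate 2, siRNA control replicate 1 and siRNA control replicate 2.

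**Figure D2:**
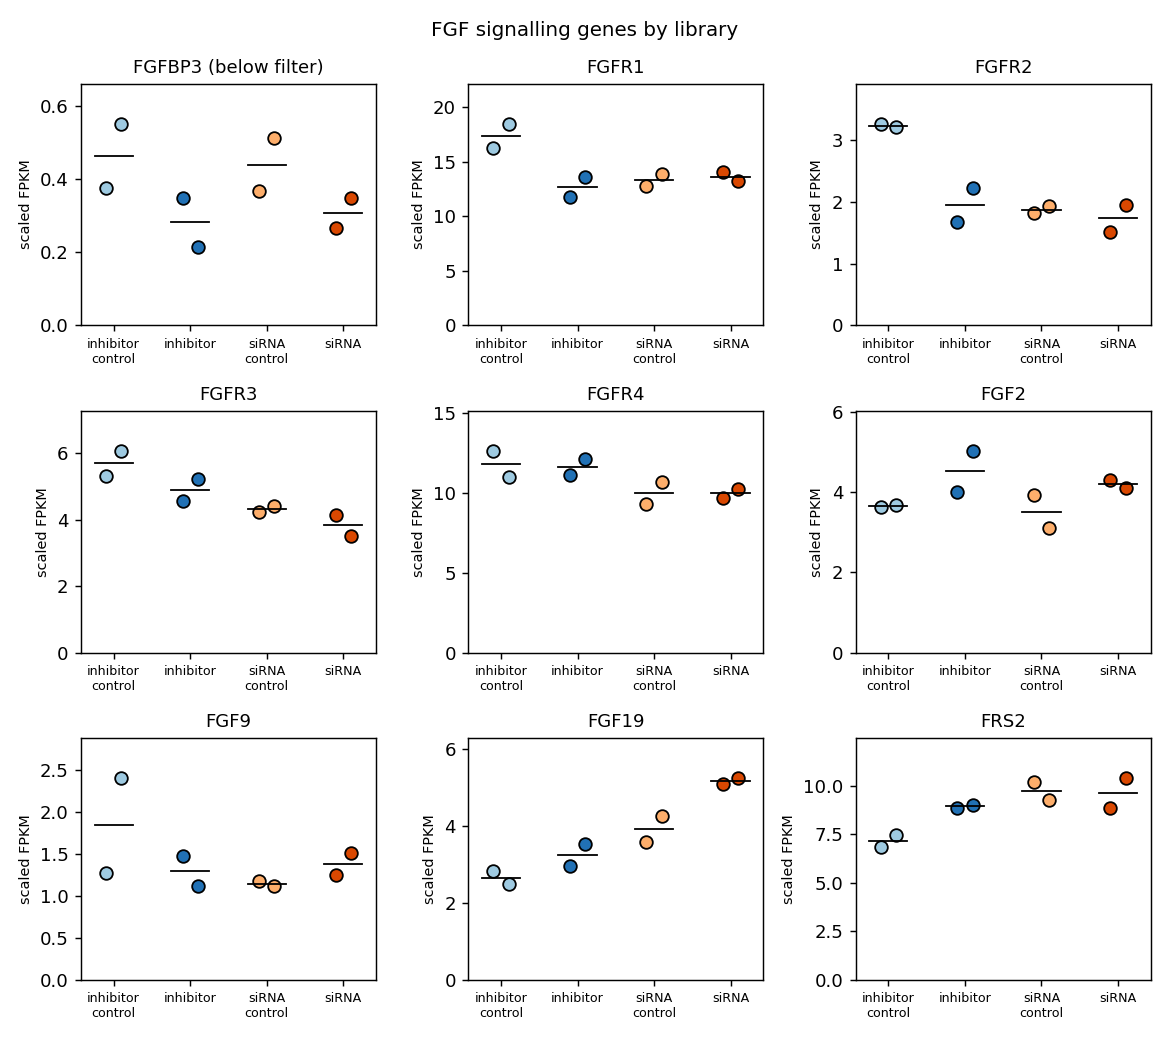
Scaled FPKM of the 9 members other than FGFBP1 in each library (points) with the group mean (line), each panel on its own axis from 0. FGFR1 and FGFR2 are highest and FRS2 lowest in the 2 inhibitor controls, and FGF19 is highest in the 2 siRNA libraries.

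**Figure D3:**
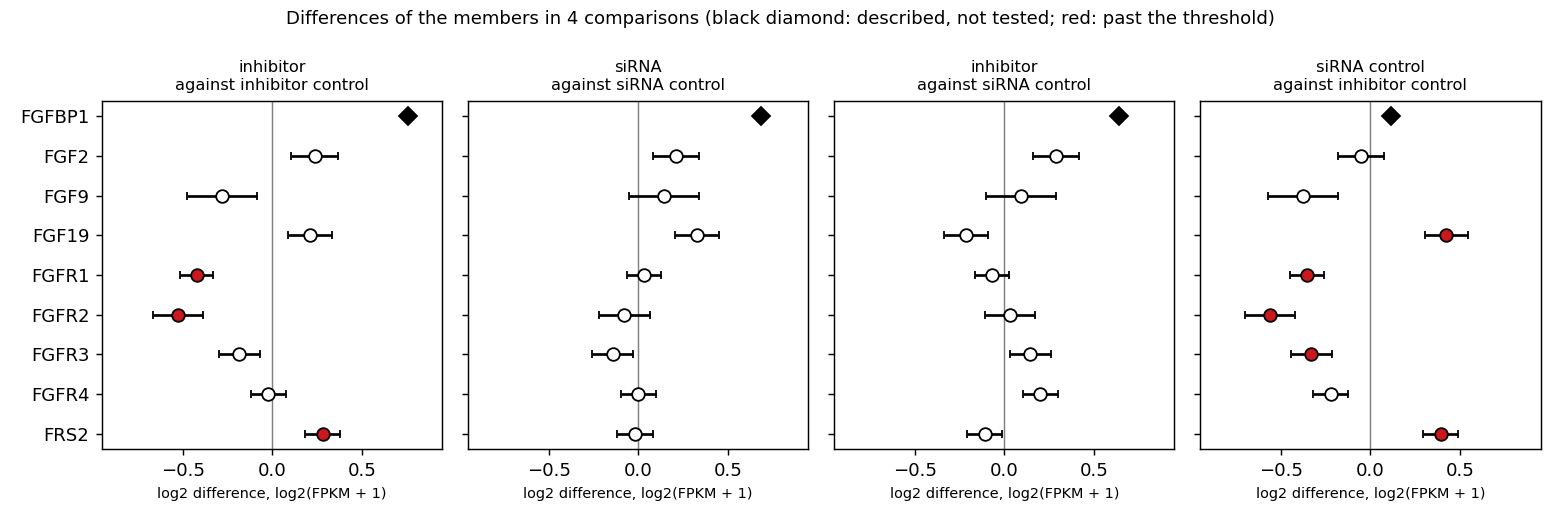
Log2 differences of FGFBP1 (black diamonds, no error or test) and the 8 other members tested (circles with SE from limma) in 4 comparisons, with red circles past an adjusted p of 0.05. FGFBP1 lies between 0.64 and 0.76 in the 3 comparisons of treated with control libraries, and the red circles occur in the comparisons with the inhibitor controls.

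Over all 8 libraries the members ranked FGFBP1 (mean 20.2 FPKM), FGFR1 (14.3), FGFR4 (10.9), FRS2 (8.86), FGFR3 (4.68), FGF2 (3.98), FGF19 (3.75), FGFR2 (2.2), FGF9 (1.42) and FGFBP3 (0.373). FPKM is per length, which allows this order. The mean of FGFBP1 includes the treated libraries it was selected on, and the control groups differed in its place. In the inhibitor controls its mean of 14.4 was below the 17.3 of FGFR1. In the siRNA controls its mean of 15.7 was above the 13.3 of FGFR1. Neighbours in the order overlapped in range except FRS2 above FGFR3 and FGF9 above FGFBP3.

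The wider pathway was read from lists of 91 genes other than FGFBP1, of which 61 were tested. With the inhibitor 7 were higher and 17 lower, 39.3% of those tested beside 36.5% of all genes, with a median log2 difference of -0.15 beside 0.01 for all genes. With siRNA 1 was lower and none higher, 1.6% beside 2.13% of all genes, with a median of -0.07 beside -0.01. For inhibitor against siRNA control none passed, beside 0.0389% of all genes, with a median of -0.002 beside -0.006. There 9 were under an unadjusted p of 0.05, but the share of all genes under it was not counted, so the 9 cannot be set against it. Between the controls 8 were higher and 18 lower in the siRNA controls, 42.6% beside 38.3% of all genes. The median there was -0.15 beside 0.01, a shift like that with the inhibitor. The inhibitor count was 15 without inhibitor control replicate 1 and 13 without inhibitor replicate 2, and the count between the controls was 17 without inhibitor control replicate 1 and 16 without siRNA control replicate 1.

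Among the coreceptors and heparan sulfate core proteins 1 of 6 tested was called with the inhibitor, beside 36.5% of all genes. It was the syndecan SDC3, which went from 4.507 and 4.598 FPKM to 3.322 and 2.421 (limma adjusted p = 0.0181). SDC3 was lower still in the siRNA controls, at 1.931 and 1.59 FPKM, a log2 difference of -1.01 from the inhibitor controls (limma adjusted p = 0.000762). The coreceptors of the endocrine FGFs were low, KL listed at 0 in every library and KLB between 0.5246 and 0.8641 FPKM. Of 8 heparan sulfate enzymes tested, 1 was higher and 1 lower with the inhibitor, beside 17.7% and 18.7% of all genes. HS2ST1, which sulfates the 2-O position, was lower by a log2 difference of -0.39 (limma adjusted p = 0.00744). EXT2, which builds the chain, was higher by 0.32 (limma adjusted p = 0.00831). Neither passed with siRNA, where the difference was -0.32 for HS2ST1 (limma adjusted p = 0.0862) and 0.17 for EXT2 (limma adjusted p = 0.216). Both were called between the controls, HS2ST1 at -0.31 (limma adjusted p = 0.0203) and EXT2 at 0.34 (limma adjusted p = 0.00528).

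Of 11 receptor adaptors tested, FRS2 and CRK were higher with the inhibitor and 3 were lower, beside 17.7% and 18.7% of all genes. PLCG1, the phospholipase that binds the receptor directly, went from 18.25 and 14.92 FPKM to 10.94 and 11.71 (limma adjusted p = 0.00428). PTPN11, the phosphatase recruited by FRS2, went from 48.49 and 47.1 to 35.66 and 36.57 (limma adjusted p = 0.00161). The siRNA controls, at 11.87 and 11.41 for PLCG1 and 35.74 and 35.94 for PTPN11, lay with the inhibitor libraries for both genes.

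The RAS and MAP kinase list had the largest inhibitor differences, with 1 of 10 higher and 5 lower, beside 17.7% and 18.7% of all genes. MAP2K1, the kinase MEK1, was 21.08 and 19.84 FPKM in the inhibitor controls and 11.74 and 11.77 with inhibitor, a log2 difference of -0.75 (limma adjusted p = 0.0003). The siRNA controls held 11.59 and 10.25 and the siRNA libraries 8.842 and 9.684, so both inhibitor controls stood apart from the other 6 libraries. MAPK3, the kinase ERK1, differed by -0.69 with inhibitor (limma adjusted p = 0.000872). When set against siRNA control libraries, the inhibitor libraries differed by 0.10 for MAP2K1 and -0.01 for MAPK3, and neither passed.

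Of 11 feedback inhibitors and targets tested, 2 were higher and 4 lower with the inhibitor, beside the same shares of all genes. SPRY1, a Sprouty protein, went from 1.814 and 1.779 FPKM to 0.7721 and 0.8458 (limma adjusted p = 0.0063), below the 1.096 to 1.553 of the siRNA controls and siRNA libraries. SPRED2 differed by -0.50 with inhibitor (limma adjusted p = 0.00828). DUSP6, a phosphatase of ERK, was 38.81 and 38.16 FPKM in the inhibitor controls and 49.47 and 51.37 with inhibitor, a log2 difference of 0.38 (limma adjusted p = 0.00298). The siRNA controls held 36.98 and 42.6 and the siRNA libraries 44.44 and 44.19, and that difference of 0.16 did not pass (limma adjusted p = 0.245). All 4 treated libraries were therefore above all 4 controls for DUSP6, by 44.19 over 42.6, as they were for 5.57% of the genes tested. SPRED2 and SPRY4 of the same list went the other way. Their highest treated libraries were 5.676 and 25.25 FPKM, and their lowest controls 5.916 and 25.61. All 4 treated libraries lay below all 4 controls for 5.84% of the genes tested.

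DUSP5, a nuclear phosphatase of ERK, was the one pathway gene called with siRNA. It was 59.75 and 64.53 FPKM in the siRNA controls and 42.22 and 43.42 with siRNA, a log2 difference of -0.53 (limma adjusted p = 0.00655). With the inhibitor it was 68.93 and 66.75 against 79.71 and 77.78, a difference of -0.21 (limma adjusted p = 0.0163), and the inhibitor libraries lay above the siRNA controls. No pathway gene was called with siRNA without siRNA control replicate 2 or without siRNA replicate 1. Among 7 transcription factors listed for the FGFBP1 promoter, 1 was higher and 1 lower with the inhibitor, beside 17.7% and 18.7% of all genes. With the inhibitor SP1 was lower (-0.38, limma adjusted p = 0.00446) and CEBPB higher (0.31, limma adjusted p = 0.0281). None of the 7 passed with siRNA, where 2.13% of all genes did. Between the controls SP1 differed by -0.34 (limma adjusted p = 0.00734) and CEBPB by 0.31 (limma adjusted p = 0.0265), and for inhibitor against siRNA control the differences were -0.04 and -0.002 and did not pass.

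**Figure D4:**
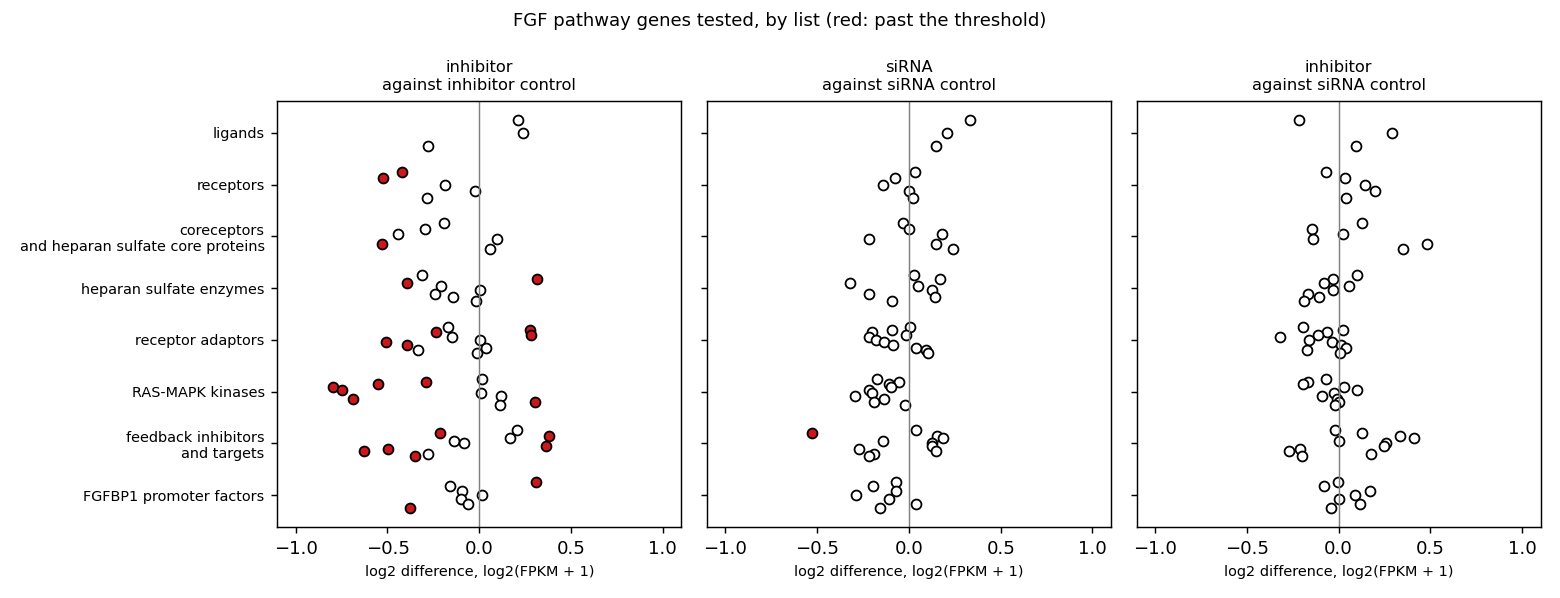
Log2 differences of the pathway genes tested, other than FGFBP1, by list in 3 comparisons, with red points past a limma adjusted p of 0.05. There are 24 red points with the inhibitor, 1 with siRNA and 0 when the inhibitor libraries are set against the siRNA controls. The shares of all genes tested that passed were 36.5%, 2.13% and 0.0389%.

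Within 500 kb of FGFBP1 the files list 21 other genes, of which 15 had means under 1 FPKM and 3 of these were at 0 in every library. FGFBP2 at 21.5 kb and the stem cell antigen gene PROM1 at 24.3 kb on one side, and CD38 at 82.3 kb on the other, were nearly silent, with no library above 0.3188 FPKM. CC2D2A, BST1 and TAPT1 were tested and passed in no comparison, and the ribosomal pseudogene RPS21P4, at 1.003 to 2.758 FPKM, was left untested because its locus is 248 bases long.

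FBXL5, an iron-sensing ubiquitin ligase subunit 253.9 kb away, was 13.04 and 13.55 FPKM in the inhibitor controls, 16.76 and 18.72 with inhibitor, 18.15 and 16.49 in the siRNA controls and 19.57 and 20.47 with siRNA. It rose by 0.39 with inhibitor (limma adjusted p = 0.00528), and the difference of 0.20 with siRNA did not pass (limma adjusted p = 0.201). FAM200B, 230.0 kb away, was 17.9 and 16.06 FPKM in the inhibitor controls, 24.53 and 24.81 with inhibitor, 25.04 and 28.1 in the siRNA controls and 24.73 and 25.15 with siRNA. It rose by 0.52 with inhibitor (limma adjusted p = 0.00113) and differed by -0.09 with siRNA (limma adjusted p = 0.564). For both genes the siRNA controls were also above the inhibitor controls, by 0.36 for FBXL5 (limma adjusted p = 0.00746) and 0.62 for FAM200B (limma adjusted p = 0.000434). In each of these comparisons 2 of the 5 neighbours tested were called, beside 36.5% of all genes with the inhibitor and 38.3% between the controls. None of the 6 expressed neighbours had its 4 treated libraries above its 4 controls, beside 5.57% of the genes tested. With so few neighbours and so small a share, this does not set them apart from other genes. Without inhibitor replicate 2, 1 of the 2 calls with the inhibitor was made. The loci of FBXL5 and FAM200B overlap, as do those of FAM200B and BST1, and the use of strand in counting is not stated in the labels, so their reads may be mixed.

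**Figure D5:**
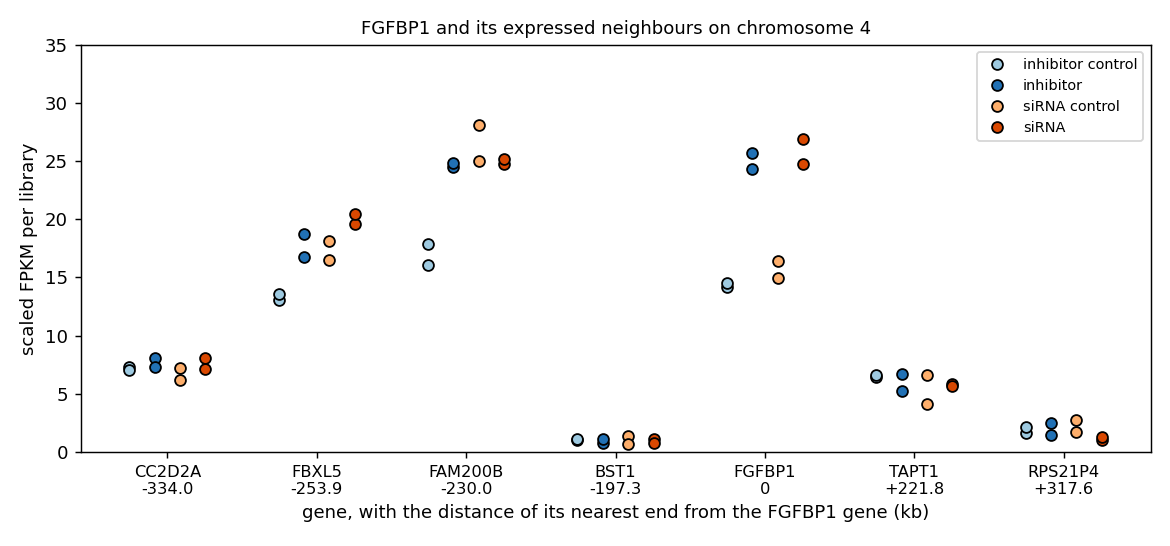
Scaled FPKM per library of FGFBP1 and the 6 genes within 500 kb that had a mean of at least 1 FPKM, ordered by the distance of the nearest gene end. FGFBP1, selected as higher after both treatments, separates treated from control libraries, while FAM200B separates the 2 inhibitor controls from the other 6 libraries.

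The genes whose levels most resembled FGFBP1 over the 8 libraries were sought among 7770 genes with at least 0.5 of its log2 range. They were TMSB15A (Pearson r = 0.978), UBE2D1 (0.971), BIK (0.971), NIPSNAP3A (0.955) and SNHG3 (0.954), each with its 4 treated libraries above its 4 controls. These correlations describe 8 libraries in 4 groups, and they select genes by the same contrasts, so no test is given. TMSB15A, a thymosin of the beta family, was 9.285 and 9.157 FPKM in the inhibitor controls, 15.51 and 15.46 with inhibitor, 10.91 and 10.3 in the siRNA controls and 16.52 and 14.38 with siRNA. BIK, a pro-apoptotic BH3-only protein, ran from 4.648 to 5.471 in the controls and from 6.573 to 7.733 in the treated libraries. Among the members, r with FGFBP1 was 0.71 for FGF2, 0.56 for FGF19, 0.45 for FRS2, -0.11 for FGFR4, -0.24 for FGF9, -0.47 for FGFR3, -0.57 for FGFR1 and -0.64 for FGFR2.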

How the data were processed

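RNA was sequenced from HCT116 cells with a stranded total RNA kit, per the labels' protocols. STAR 2.3.0e, SAMtools 0.1.19, Cufflinks and hg19 are named in the submitters' processing notes. The Cufflinks version, annotation and strand setting were not given in the sources used here, so overlapping genes and paralogs may share reads. Values are FPKM per gene and run, deposited by the authors, with no counts. The protocols do not separate the RNA cultures from those for imaging. The 2 runs of a library were averaged and libraries were scaled by the median of ratios (factors 0.878 to 1.09). Tests on log2(FPKM + 1) used limma version 3.58.1 under R version 4.3.3 (two-sided, trended variance, 4 residual and 5.04 prior degrees of freedom), all 8 libraries in 1 fit, with Benjamini-Hochberg adjustment. 6 genes held 48.5% to 55.8% of summed FPKM. The fit was tested on simulated data. Locus starts are written counting from 1. The members and lists were chosen with earlier results of these data known, and FGFBP1 was selected on the inhibitor and siRNA contrasts. Genes were named as all 10 members, neighbours within 500 kb at a mean of at least 1 FPKM, up to 3 called genes of largest difference per list and comparison, the 5 genes most correlated with FGFBP1, and EHMT2. KL, KLB, FGF18, FGFBP2, PROM1 and CD38, outside that rule, were chosen after they were seen. Alternatives were filters, pseudocount, scaling, runs, replicate block and leaving out each library. No protein sequences are shown, and some genes that the naming rule would include are not reported here.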

Additional observations from a re-analysis of the deposited data

Results flagged for a closer look

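The following genes of the FGF pathway and its chromosome 4 neighbourhood had an inhibitor effect that differed from the siRNA effect, by the interaction term of the same limma fit, where 11.8% of all genes tested passed. Each value is the log2 inhibitor effect minus the log2 siRNA effect. The value was positive for FAM200B at 0.60 (limma adjusted p = 0.0111), NRAS at 0.49 (limma adjusted p = 0.00845), CRK at 0.37 (limma adjusted p = 0.0209) and DUSP5 at 0.31 (limma adjusted p = 0.0345). DUSP5 was lower with both treatments, at -0.21 with inhibitor and -0.53 with siRNA. The value was negative for SPRY1 at -0.77 (limma adjusted p = 0.0317), MAPK3 at -0.55 (limma adjusted p = 0.0334), MAP2K1 at -0.53 (limma adjusted p = 0.0237) and HRAS at -0.45 (limma adjusted p = 0.0107). The inhibitor controls stand apart from the other 6 libraries in their correlations, and the part of this in the differences was not tested. The number of pathway genes with such a difference, named here or not, fell from 9 to between 1 and 8 when single libraries were left out.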

How the results depend on the processing

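The log2 difference of FGFBP1 lay between 0.681 and 0.836 with the inhibitor and between 0.625 and 0.748 with siRNA over 18 alternative settings. With the inhibitor it was 0.681 with the first run alone and 0.836 with the second. Several of the 18 cannot change this difference, among them the filters, the replicate block and leaving out a library of another group. The range is therefore a description of a selected gene and not 18 separate checks. As deposited, without scaling, it was 0.758 for inhibitor against siRNA control and -0.011 between the controls. For the other members, calls with the inhibitor numbered 0 without the filter on low values, 1 with the first run alone and 0 to 3 when single libraries were left out. Between the controls they numbered 0, 1 and 1 to 5, and 3 with the second run alone. Pathway calls numbered 13 to 24 with the inhibitor, 0 to 2 with siRNA, 16 to 26 between the controls and 1 to 8 for the difference of effects when single libraries were left out. Without the filter they numbered 0 with siRNA, 16 between the controls and 2 for the difference, and 1 for the difference as deposited. Neighbour calls numbered 1 to 2 with the inhibitor and 0 to 1 for the difference when single libraries were left out, 0 for the difference without the filter, and 1 between the controls as deposited. The cause was not tested.

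Directions that turned belonged to differences that did not pass, the largest being FGF9 with the inhibitor, at -0.28. With siRNA, FGFR1 was -0.022 as deposited, -0.213 with the first run and -0.022 to 0.084 over left-out libraries. For inhibitor against siRNA control it was 0.045, 0.017 with the second run, and -0.163 to 0.027. FGFR2 ran from -0.191 to 0.037 with siRNA and from -0.103 to 0.168 for inhibitor against siRNA control over left-out libraries. For the difference of effects, FGFR3 was 0.031 with quantile normalization, 0.022 with the second run, and -0.135 to 0.05. FGFR4 was 0.03 with quantile normalization, 0.055 with the first run, and -0.111 to 0.07 with the inhibitor. With siRNA it was -0.052 as deposited, -0.077 with the first run, and -0.09 to 0.09. For the difference of effects it was 0.017 as deposited, 0.003 with quantile normalization, 0.132 with the first run, and -0.111 to 0.069. FGF2 between the controls was 0.011 with quantile normalization and -0.181 to 0.078, and for the difference of effects -0.087 with the first run and -0.104 to 0.16. FGF9 ran from -0.57 to 0.009 with the inhibitor and from -0.021 to 0.209 for inhibitor against siRNA control over left-out libraries, and was -0.102 with siRNA in the second run. FRS2 with siRNA was 0.012 with quantile normalization, 0.013 with the second run, and -0.123 to 0.087.

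Same-numbered libraries did not deviate together (r from -0.10 to 0.05). With the replicate block, 2 members were called with the inhibitor and 4 between the controls, with 0 for the other comparisons, and the calls lost were FRS2 with the inhibitor (limma adjusted p = 0.0634) and FGFR3 between the controls (limma adjusted p = 0.0665). The fit on 2 groups alone gives no difference of effects. A left-out library leaves 1 in its group, assumed to vary like the others. Precision is limited by 2 libraries per group and unknown depth.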
